A study of Mus musculus with 3 samples.

Results

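The nuclear hormone receptors examined here were 35 mouse genes, picked by gene symbol, with the retinoid receptors and 8 other nuclear receptors left out. A peak of the LIM-homeodomain transcription factor Isl1 was counted for a receptor gene when the authors' peak list carried that gene's symbol. Of the 35 genes, 26 had at least 1 Isl1 peak and 9 had none, and the 26 genes shared 50 of the 14082 distinct peaks in the list. The peaks came from ChIP-Seq, a method that pulls down the DNA held by a protein with an antibody and reads it by sequencing. The chromatin was taken at day 5 of differentiation from cardiac progenitor cells (CPCs). These cells were derived from 1 embryonic stem cell line, E14 Tg(Nkx2-5-EmGFP), which carries a fluorescent reporter for the early heart gene Nkx2-5. Both groups shared this line and this day, and no group with altered Isl1 was included. In the directed differentiation protocol of the study, BMP4, activin A and VEGF were given to aggregates, and VEGF, bFGF and FGF10 after plating. The study also describes a hanging drop protocol, and its methods do not say which served for ChIP-Seq. The 3 samples were 2 Isl1 ChIP replicates (a monoclonal antibody from DSHB) and 1 input, which is chromatin before the pulldown. The labels do not say whether the replicates were separate differentiations. The list joins both replicates and holds no score or read number, so the depth is unknown and no value below carries a replicate error. It also holds no expression, so the cell type was not checked against marker genes.

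Nuclear hormone receptors are transcription factors that bind DNA through a pair of zinc fingers and, in many members, a small lipid-soluble ligand through a separate domain. Without ligand many of them sit on DNA with corepressors, and ligand swaps these for coactivators. Steroid receptors such as the glucocorticoid receptor wait in the cytoplasm on chaperones instead, and orphan receptors such as the Nur77 family act without a known natural ligand. In the heart, members of this group are known for the growth of the atria (Nr2f2), the switch to fatty acid oxidation (Ppara, Esrra, Esrrg) and the response to thyroid hormone (Thra).

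Short stretches of DNA under 7 of the receptor peaks are printed first. They are picked examples, most of them near a start site, and do not represent all receptor peaks. All are the plus strand of NCBI m37, which is the mm9 sequence used by the authors, read 5′ to 3′ from the central 200 bp of single-copy peaks. Annotated UTR bases, and bases past an assigned start site inside the window, were left off, except at Nr2f1. In the first 4 the capitals mark strings searched for on both strands. They are AGGTCA, the half-site of many nuclear receptors, in Pparg; AGATAG, a form of the GATA factor string, in Rora; TAAT and its complement ATTA, the core of homeodomain sites, and next to them ATGCAAAT, the octamer bound by POU factors, in Thra; and CTAATGG on the minus strand, a LIM-homeodomain type string, in Nr2f1. For Nr2f1 29 bases around the string are shown. In Nr4a3 the capitals mark a match to the MEF2 consensus, and in Ppara and Nr2f2 they mark GGGCGG, the GC box, or its complement.
Pparg, chr6:115311021-115311161: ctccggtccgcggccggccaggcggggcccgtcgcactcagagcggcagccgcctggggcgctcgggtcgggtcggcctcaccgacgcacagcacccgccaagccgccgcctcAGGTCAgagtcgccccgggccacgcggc
Rora, chr9:68501491-68501592: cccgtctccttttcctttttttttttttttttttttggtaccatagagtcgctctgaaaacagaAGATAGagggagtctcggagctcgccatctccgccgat
Thra, chr11:98603321-98603471: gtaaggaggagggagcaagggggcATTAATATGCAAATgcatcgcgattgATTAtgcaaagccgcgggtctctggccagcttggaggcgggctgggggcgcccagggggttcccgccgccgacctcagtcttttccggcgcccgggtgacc
Nr2f1, chr13:78302946-78302974: cctcctggcccCCATTAGattgctttctt
Nr4a3, chr4:48056039-48056238: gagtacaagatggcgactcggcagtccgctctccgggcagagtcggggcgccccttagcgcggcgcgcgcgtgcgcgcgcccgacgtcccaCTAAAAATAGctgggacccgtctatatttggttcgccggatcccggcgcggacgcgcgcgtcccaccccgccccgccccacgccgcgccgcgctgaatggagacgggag
Ppara, chr15:85565704-85565903: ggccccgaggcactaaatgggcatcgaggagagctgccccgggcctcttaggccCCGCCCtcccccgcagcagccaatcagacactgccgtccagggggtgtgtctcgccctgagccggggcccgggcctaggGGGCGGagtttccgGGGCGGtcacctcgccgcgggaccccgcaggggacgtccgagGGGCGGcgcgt
Nr2f2, chr7:77506668-77506867: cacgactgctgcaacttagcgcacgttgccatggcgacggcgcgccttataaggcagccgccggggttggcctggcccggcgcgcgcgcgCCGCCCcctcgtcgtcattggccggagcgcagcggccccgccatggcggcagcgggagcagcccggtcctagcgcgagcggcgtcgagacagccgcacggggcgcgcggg

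The Nr4a3 and Nr2f2 stretches held 35 CpG dinucleotides each in 200 bp, Pparg 22 in 141 bp and Ppara 21 in 200 bp. GC content was 80.1% in Pparg and 44.1% in the Rora stretch, which opens with a run of pyrimidines. A different kind of sequence lay under a peak 500443 bp upstream of Nr2f2, which covered a CA and GA dinucleotide repeat. No capitals are used for it.
Nr2f2 distal, chr7:78011976-78012175: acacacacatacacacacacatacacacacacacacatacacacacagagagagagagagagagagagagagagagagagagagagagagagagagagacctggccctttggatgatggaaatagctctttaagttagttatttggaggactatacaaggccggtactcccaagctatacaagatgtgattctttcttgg

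Isl1 peaks were found at a larger share of the receptor genes than of protein-coding genes in general, both at any distance and close to the start site. A peak was assigned to 26 of 35 receptors (74.3%), where 39.1% of 21031 protein-coding genes had one. The peak lay within 1 kb of the transcription start site (TSS), by the deposited distance from the peak midpoint, at 14 receptors (40.0%, all protein-coding genes 24.2%). At least 2 peaks were assigned to 10 receptors (28.6%, all 11.1%) and at least 3 to 7 receptors (20.0%, all 4.15%). Nr2f2 and Nr4a3 had 3 or more peaks within 10 kb of a TSS (5.71%, all 0.281%). The 8 non-retinoid nuclear receptors left out went the other way, with a peak at 25.0% of them and one within 1 kb at 0.0%. These shares describe the list, and no test was made of them. The stretch of sequence closest to a gene's start sites was also longer for the 35 receptors. Its median was 91.4 kb, against 46.0 kb for 18118 protein-coding genes, and its part in these shares was not tested.

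**Figure D1:**
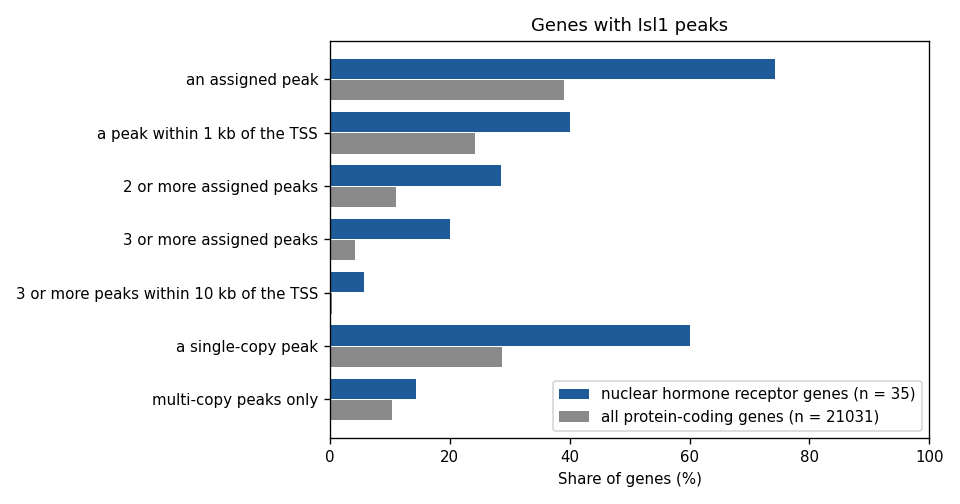
Bars give the percentage of the 35 nuclear hormone receptor genes (blue) and of 21031 protein-coding genes (grey) that met each rule on the left, by the authors' gene assignment. The blue bar is the longer one under each of the 7 rules, for example 74.3% against 39.1% for any assigned peak.

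How often the sequence under a peak recurs in the genome bears on how surely its reads can be placed. A peak was called multi-copy when the 31-base words of its central 200 bp occurred at least 2 times in the genome in the median, and single-copy otherwise. Of the 50 receptor peaks 20 were multi-copy (40.0%, all peaks 46.5%). None of the 17 peaks within 1 kb of a TSS was multi-copy (all peaks 2.62%). Between 1 and 10 kb 1 of 8 was (12.5%, all 38.4%), and beyond 10 kb 19 of 25 were (76.0%, all 81.2%). The share rose with distance in both sets, but the receptor value between 1 and 10 kb was lower and rests on 8 peaks. A single-copy peak remained at 21 receptors (60.0%, all protein-coding genes 28.7%). Esr2, Hnf4g, Nr5a2, Rorb and Vdr had multi-copy peaks only (14.3%, all 10.3%). Whether reads were misplaced at these peaks was not tested.

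**Figure D2:**
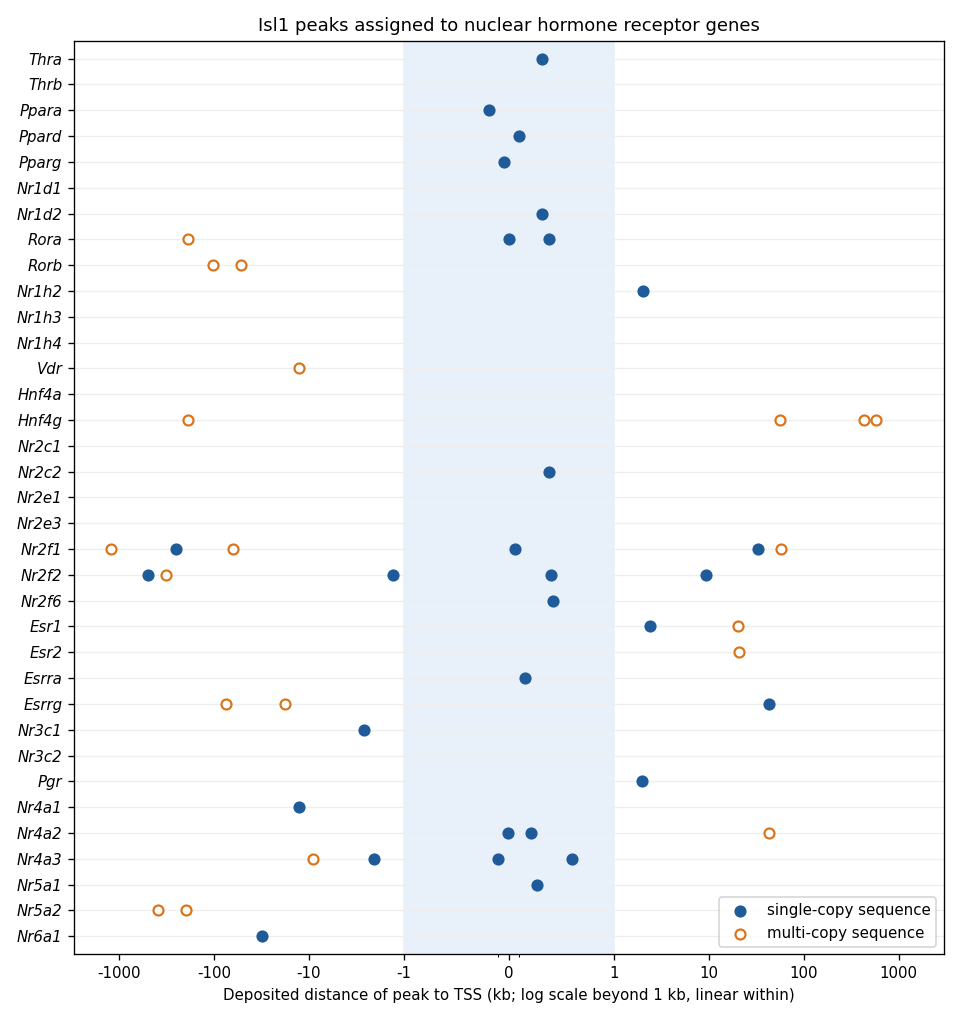
Each point is 1 of the 50 Isl1 peaks, placed in the row of its assigned receptor at the deposited distance from the TSS in kb (linear within 1 kb, logarithmic outside, negative upstream). Filled blue points are single-copy and open orange points multi-copy sequence. The 17 points in the shaded 1 kb zone are all filled, 19 of the 25 points beyond 10 kb are open, and 9 rows are empty.

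The COUP-TF receptors carried the most peaks, 12 over 3 genes, of which 8 were single-copy. These orphan receptors shape the atria and veins (Nr2f2, COUP-TFII) and neural and craniofacial tissue (Nr2f1, COUP-TFI). Nr2f2 had a peak of 805 bp at chr7:77504679-77505484, in a coding exon 398 bp downstream of the assigned TSS, which lies 6.14 kb inside the annotated gene. Another, of 572 bp at chr7:77506481-77507053, lay 1288 bp upstream of that TSS, in an intron of Nr2f2. These neighbours were separated by 997 bp. One more Nr2f2 peak lay 9389 bp downstream of the TSS at chr7:77495729-77496451, just past the end of the gene. All of these proximal Nr2f2 peaks were GC-rich, from 74.0% to 79.5% GC in the central 200 bp. The remaining Nr2f2 peaks lay 317471 and 500443 bp upstream, the former with a median of 1586 copies and the latter on the dinucleotide repeat printed above. Both were closest to the TSS of another annotated gene, B130024G19Rik.

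Nr2f1 was the receptor with the most peaks, 6, spread over more than 1 Mb. The widest, 1900 bp at chr13:78337121-78339021, lay 63 bp from the TSS. A 958 bp peak at chr13:78302426-78303384, 32805 bp downstream of the assigned TSS in a coding exon of the neighbouring gene Fam172a, held the CTAATGG string printed above and was single-copy. A narrow 357 bp peak at chr13:78591814-78592171, 253858 bp upstream, was also single-copy. However, 88.0% of the bases in its central 200 bp were of 1 class, purines or pyrimidines. The Nr2f1 peaks at 57728 bp downstream and at 62477 and 1223140 bp upstream were multi-copy. Nr2f6, the third COUP-TF gene, had 1 peak, 422 bp from the TSS at chr8:73904212-73906647. At 2435 bp it was the widest of the 50 receptor peaks.

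The Nur77 family, orphan receptors switched on quickly by many stimuli, had 8 peaks at its 3 genes, 4 of them within 1 kb of a TSS and 6 single-copy. Nr4a3 (Nor1) had 4 peaks in a stretch of 16388 bp. They lay 9083, 2039 and 107 bp upstream of a TSS and 599 bp downstream of another TSS 5941 bp away. The first of these was called multi-copy with a median of 2 copies by 31-base words and 1 by 75-base words. The peak 2039 bp upstream, at chr4:48055693-48056583, held the MEF2 match and was 929 bp from its neighbour. Nr4a2 (Nurr1) had peaks at chr2:56975806-56977036, 7 bp upstream of a TSS, and at chr2:56966848-56967624, 213 bp downstream of another TSS 8965 bp away. With 86.0% GC the former was the most GC-rich receptor peak. The remaining Nr4a2 peak, 42798 bp downstream, was multi-copy. Nr4a1 (Nur77) had none near its TSS and 1 single-copy peak 12534 bp upstream, at chr15:101084315-101085171, with 78.0% GC.

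**Figure D3:**
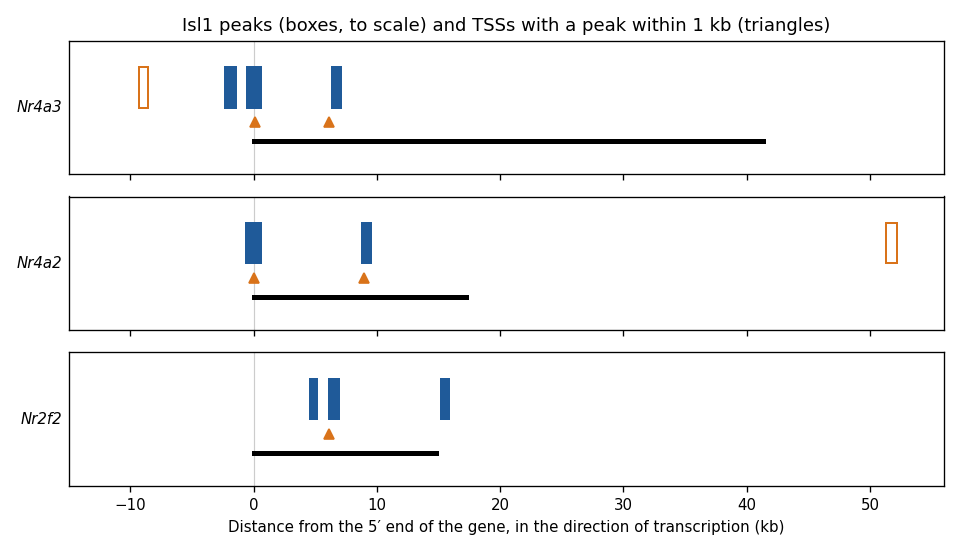
Peaks (boxes, filled blue for single-copy and open orange for multi-copy) are drawn to scale along Nr4a3, Nr4a2 and Nr2f2, with distance in kb from the 5′ end of the annotated gene (black bar) in the direction of transcription. Triangles mark each assigned TSS with a peak within 1 kb, of which Nr4a3 and Nr4a2 have a pair and Nr2f2 has 1. The Nr2f2 peaks at -317471 and -500443 bp fall outside the plot.

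All 3 PPAR genes, which encode fatty acid sensing receptors, had a single peak, and each peak was single-copy and close to the TSS. The Pparg peak (835 bp, chr6:115310703-115311538) lay 42 bp upstream, the Ppard peak (838 bp, chr17:28369376-28370214) 96 bp downstream, and the Ppara peak (1607 bp, chr15:85565000-85566607) 191 bp upstream. The estrogen-related receptors, orphan regulators of mitochondrial genes, differed from each other. Esrra had a 916 bp peak 152 bp from its TSS at chr19:6995688-6996604, with 84.0% GC. Esrrg had none within 10 kb, but a single-copy peak of 573 bp in its intron 42936 bp downstream (chr1:189475535-189476108, 78.0% GC) and multi-copy peaks 17696 and 74193 bp upstream.

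At the thyroid hormone receptors and their neighbours the peaks followed a mixed pattern. Thra had a 1160 bp peak at chr11:98602831-98603991, 312 bp from its assigned TSS, and Thrb had none, the nearest peak being 237507 bp from any of its start sites. Next to Thra on chromosome 11 lies Nr1d1 (Rev-erb alpha, a repressor in the circadian clock), whose 3′ end overlaps it. Nr1d1 had no peak within 20307 bp of a start site. Nr1d2 (Rev-erb beta), next to Thrb on chromosome 14, had a 1176 bp peak 315 bp from its TSS at chr14:19070717-19071893. The retinoic acid receptor genes on the same chromosomes differed as Thra and Thrb did, and the other way than Nr1d1 and Nr1d2. Rara on chromosome 11 had a single-copy peak 112 bp upstream of its TSS. The 3 peaks of Rarb on chromosome 14 were multi-copy and at least 56475 bp away.

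The ROR receptors, which compete with Rev-erb receptors for the same clock gene sites, had 5 peaks. Rora had single-copy peaks at start sites 636055 bp apart, 1 of 999 bp lying 3 bp upstream (chr9:68501091-68502090) and 1 of 1640 bp lying 379 bp downstream (chr9:69137207-69138847). Nr4a2 and Nr4a3 also had peaks within 1 kb of more than 1 assigned TSS. No share of all protein-coding genes is given for this rule. The remaining Rora peak, in an intron 189639 bp upstream of the second of these start sites, was multi-copy, as were both Rorb peaks, 51734 and 103514 bp upstream.

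The steroid receptors had no peak within 1 kb by the deposited distance, but the distance depended on the annotation. Esr1 (estrogen receptor alpha) had an 847 bp peak 2414 bp downstream of its assigned TSS, at chr10:5633546-5634393, and a multi-copy peak at 20230 bp. Pgr, the progesterone receptor, had a 1026 bp peak 1952 bp downstream at chr9:8901272-8902298. For Nr3c1, the glucocorticoid receptor, a peak 2140 bp wide lay 2619 bp upstream at chr18:39648448-39650588. By the closest protein-coding TSS of the GENCODE annotation of mm9, the same peaks lay 80 bp from a start site of Esr1, 337 bp from one of Pgr and 19 bp from one of Nr3c1. Nr1h2 (LXR beta, an oxysterol receptor) had a 1299 bp peak at chr7:51806679-51807978 that was 2007 bp from the assigned and 88 bp from an annotated TSS. Nr3c2, the mineralocorticoid receptor, had no assigned peak, but a single-copy peak at chr8:79422851-79424007 lay 89 bp from its start site under the symbol of the neighbouring transcript Gm10649. With these 5, 19 receptors had a peak within 1 kb of a GENCODE TSS (54.3%), as had 26.6% of 18118 protein-coding genes under the same assignment. Esr2 (estrogen receptor beta) had 1 peak, 20595 bp downstream, with a median of 18382 copies, the highest among the receptor peaks.

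Single peaks close to the TSS were also found at Nr2c2 (TR4, an orphan receptor), with 1801 bp at chr6:92040894-92042695 and 382 bp downstream of the TSS, and at Nr5a1 (SF-1, the regulator of steroid-making tissues), with 1201 bp at chr2:38566887-38568088 and 267 bp downstream of its assigned TSS, which is an internal one. Nr5a2 (LRH-1), related to Nr5a1, had multi-copy peaks alone, 195467 and 384811 bp upstream. The Nr6a1 peak (GCNF, a repressor of Oct4 in differentiating stem cells) lay 30872 bp upstream of its assigned TSS, in an intron of Nr6a1. It was single-copy, but 97.5% of the bases in its central 200 bp were of 1 class, purines or pyrimidines. Hnf4g, related to the liver regulator Hnf4a, had 4 multi-copy peaks, from 55661 to 581557 bp from the TSS. The vitamin D receptor gene Vdr had a multi-copy peak 12784 bp upstream.

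The 9 receptors without an assigned peak were Thrb, Nr1d1, Nr1h3 (LXR alpha), Nr1h4 (FXR, the bile acid receptor), Hnf4a, Nr2c1 (TR2), Nr2e1 (Tlx, of neural stem cells), Nr2e3 (a photoreceptor regulator) and Nr3c2. Apart from Nr3c2, the nearest peak to any of their start sites lay from 8137 bp (Nr1h3) to 237507 bp (Thrb) away, and each carried another gene's symbol. Their promoters were poorer in CpG than those of the other receptors. Promoter values were taken from the TSS ± 500 bp window with the highest GC content of each gene. The observed to expected CpG ratio had a median of 0.34 (range 0.27 to 0.76) at these 9 genes, 0.67 (0.46 to 1.01) at the 12 with peaks beyond 1 kb alone, and 0.81 (0.54 to 1.0) at the 14 with a peak within 1 kb. The ranges overlapped. Among protein-coding genes the medians of the same classes were 0.45, 0.48 and 0.82 (18118 genes with a value). A ratio below 0.5 was seen at 6 of the 9 receptors without a peak, 2 of the 12 and 0 of the 14, where the shares over protein-coding genes were 53.8%, 51.5% and 3.56%. The exceptions without a peak were Thrb (0.763), Nr3c2 (0.73) and Nr2c1 (0.715). Median genomic territory, the stretch of sequence closest to a gene's start sites, was 51.8 kb, 208 kb and 134 kb in the same order, against 33.1, 121 and 71.2 kb over protein-coding genes, and its part in these differences was not tested.

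**Figure D4:**
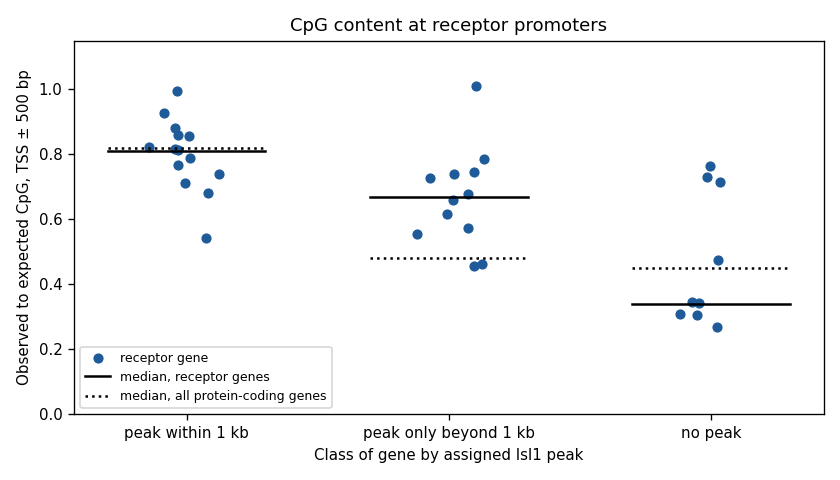
Each point is 1 receptor gene, placed by the class of its assigned Isl1 peak (14, 12 and 9 genes from left to right), and the vertical axis is the observed to expected CpG ratio of its promoter window. Solid lines are medians over receptor genes (0.81, 0.67 and 0.34) and dotted lines medians over protein-coding genes (0.82, 0.48 and 0.45). The points without a peak fall into a group of 6 below 0.5 and 3 above 0.7.

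Receptor peaks were close to the whole list in size and composition. Their median width was 873 bp (range 357 to 2435 bp), against 947 bp for all peaks. Within 1 kb of a TSS the medians were 1160 and 1050 bp, between 1 and 10 kb 868.5 and 819 bp, and beyond 10 kb 784 and 882 bp. Median GC content of the central 200 bp was 73.5% for receptor peaks within 1 kb (all peaks 74.0%) and 63.5% beyond 10 kb (all 63.5%). Between 1 and 10 kb it was 73.0% for the 8 receptor peaks and 65.5% for all. Among these 8, the peaks of Esr1, Pgr, Nr3c1 and Nr1h2 lay within 1 kb of a GENCODE TSS. The 3 distance classes held 34.0%, 16.0% and 50.0% of the receptor peaks, from near to far, and 38.5%, 10.5% and 51.1% of all peaks. The midpoint was downstream of the assigned TSS in 12 of the 17 peaks within 1 kb (70.6%, all 80.9%). By the annotation, 23 receptor peak midpoints were intergenic (46.0%, all 41.0%), 14 intronic (28.0%, all 27.4%), 7 in UTRs (14%, all 16.2%) and 6 in coding exons (12%, all 13.7%).

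**Figure D5:**
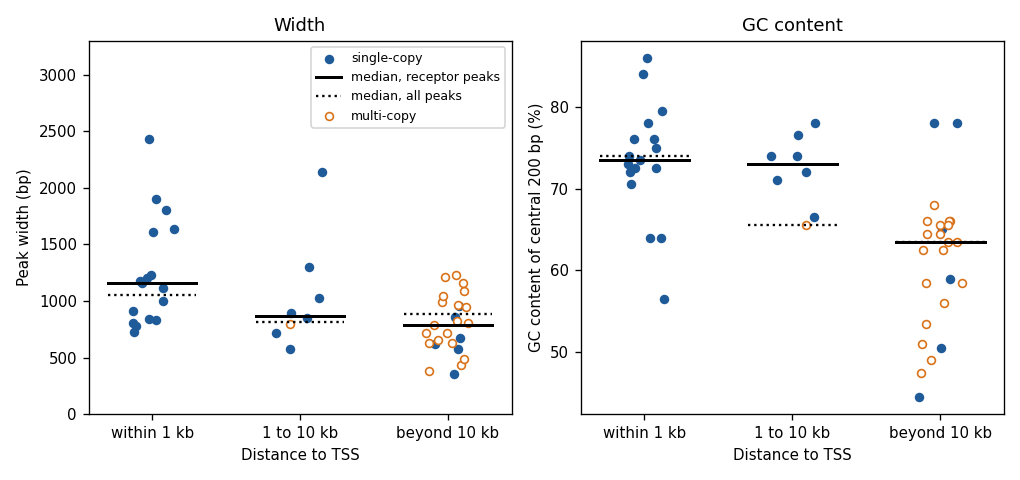
Points are the 50 receptor peaks by distance to the TSS, with peak width in bp on the left and GC content of the central 200 bp in percent on the right (filled blue, single-copy; open orange, multi-copy). Solid lines are medians of the receptor peaks and dotted lines medians of all 14082 peaks. Receptor peaks were wider and richer in GC within 1 kb (1160 bp, 73.5%) than beyond 10 kb (784 bp, 63.5%).

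The searched strings occurred under the receptor peaks as follows. TAAT occurred in the central 200 bp of 8 of 50 receptor peaks (16.0%, all peaks 19.4%), of which 4 were single-copy, at Thra, Ppard and a pair of Nr2f1 peaks. CTAATGG or CTAATTG, which both contain TAAT, occurred in 1 (2.0%, all 0.412%). AGGTCA was found at Pparg and in the multi-copy Nr4a3 peak (4.0%, all 3.61%). The GATA factor string, which was AGATAA or AGATAG or either of them with T as the first letter, occurred in 3 peaks, at Rora and a pair of Nr2f1 peaks (6.0%, all 4.22%). GGGCGG was the most common string, in 25 of 50 (50.0%, all 42.0%), and in 11 of the 17 within 1 kb (64.7%, all 65.7%). The octamer ATGCAAAT was in 1 receptor peak, Thra, and in 14 of all peaks (0.0994%). The MEF2 consensus was in 1, Nr4a3, and in 9 of all peaks (0.0639%). Apart from TAAT and GGGCGG, these shares rest on at most 3 receptor peaks, and a match is a description of the sequence, not evidence of a bound factor.

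Genes that work with the receptors are given beside the shares over all protein-coding genes, 39.1% with any peak and 24.2% with one within 1 kb. Among coactivators 11 of 14 had a peak (78.6%), within 1 kb at 9 (64.3%; Carm1, Crebbp, Ep300, Kat2b, Ncoa1, Ncoa2, Ncoa3, Ncoa7 and Ppargc1b), from 20 bp at the methyltransferase gene Carm1 to 542 bp at Kat2b. Among corepressors 9 of 12 had one (75%), within 1 kb at 8 (66.7%), including Gps2, Kdm1a, Ncor1, Nrip1, Sin3a, Tbl1xr1 (45 bp upstream) and Zbtb16. Steroid receptor chaperones had a peak in 7 of 9 cases (77.8%), each within 1 kb (Dnajb1, Fkbp4, Fkbp5, Hsp90aa1, Hsp90ab1, Hspa8 and Ptges3). Clock genes that share sites or partners with Rev-erb and ROR receptors had one in 10 of 12 (83.3%), within 1 kb at 7 (58.3%; Arntl, Bhlhe40, Bhlhe41, Clock, Cry1, Nfil3 and Npas2). Of 16 genes of hormone and ligand metabolism 5 had a peak (31.2%), and within 1 kb Hsd11b2 alone (6.25%), which inactivates glucocorticoids. Peaks within 1 kb at genes of these lists were all single-copy. The retinoid receptors had a peak in 5 of 6 cases (83.3%), within 1 kb at 4 (66.7%; Rara, Rarg, Rxra and Rxrb). Of the 8 other non-retinoid nuclear receptors left out of the main set, 2 had a peak (25.0%) and 0 had one within 1 kb (0.0%). Both shares were below those over all protein-coding genes, and 10 of the 11 peaks at these receptors were multi-copy. The remaining peak was that of Nr1i2, the xenobiotic receptor PXR, which was single-copy and lay 51848 bp from its TSS.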

How the data were processed

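The deposited list was made by the authors from 2 Isl1 ChIP replicates and 1 input of day 5 CPCs. Per the methods of the study, reads were mapped to mm9 with bowtie2, duplicates removed with Picard 1.136, peaks called with MACS14 without a fragment model, blacklisted regions dropped, areas common to both replicates kept with bedtools 2.15, and the closest TSS assigned with HOMER. The columns used were start, end and distance to the TSS in bp, and whether starts count from 0 or 1 is not stated. A peak therefore says that enrichment passed the caller in both replicates, not how strong it was. Peaks at repeated sequence depend on how the aligner placed ambiguous reads.

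From these values, identical lines were dropped (14165 lines, 14082 peaks). Copy number, GC content and strings were read from the NCBI m37 genome with Python 3.11.15, numpy 2.4.6 and pandas 2.3.3, and the copy count was tested on simulated data. Positions came from the GENCODE annotation of the same build. The deposited distance was within 2 bp of the GENCODE distance for 14 of 50 receptor peaks, so the authors' annotation was another one. Protein-coding genes came from a RefSeq table of GRCm38.p6, used for names only, which matched 9305 of 9313 symbols. No test was run, since the list holds no value per replicate.

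The receptor genes, the gene lists and the measures were chosen with earlier results of these data known. All receptors are named, other genes where a peak lay within 1 kb of the TSS, and sequences first where a single-copy peak within 10 kb held a searched string. Outside that rule, and chosen after their values were seen, are the distal peaks of Nr2f2 and Nr2f1 whose sequence is printed, the GC content of single-copy distal peaks, the stretches of Nr4a3, Ppara and proximal Nr2f2, the peaks of Nr1i2 and Rarb, the strings GGGCGG, ATGCAAAT and the MEF2 consensus, the promoter and territory values with the ratio of 0.5, the counts of at least 3 peaks, and the peaks under other symbols. Chromosome 18 sequence and some genes and sequences that the rules select are not reported here.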

Additional observations from a re-analysis of the deposited data

Results flagged for a closer look

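The comparisons counted peaks by the deposited symbol, and 21 further peaks, which they leave out, were closest to a protein-coding start site of a receptor gene but carried the symbol of a gene outside the list. Of these 7 were single-copy. Ppara had 3 of them, 32266, 47870 and 63872 bp from its start site, under the symbol of the noncoding transcript Lncppara. Nr3c2 had a pair of single-copy peaks, 89 and 713 bp from its start site under Gm10649, and 1 multi-copy peak. A single-copy peak 216 bp from a start site of Nr2f6 was assigned to Ocel1. Nr4a2 had 5 under Mir195b, of which 1 was single-copy, at least 166379 bp away. The others, 2 each at Rora, Esrrg and Nr2f2 and 1 each at Esr1, Hnf4g and Pgr, were multi-copy. The 21 were 30.4% of the 69 peaks closest to a receptor start site. Over all protein-coding genes, 17.4% of 11890 peaks carried a symbol other than that of the closest gene.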

How the results depend on the processing

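A leave-one-out value could not be had from a list that joins the replicates. No paired analysis was possible because no result comes from a test. Of 67 alternative values of 13 results, 46 stayed within 1.5 times the value reported (for counts) or within its 95% interval over peaks (for medians and the share within 1 kb), and 21 did not. This tolerance is wide, so that 18 receptors in place of 26, or 69 peaks in place of 50, count as within it. The interval treats peaks as independent, though several share a gene, and it measures no spread between replicates. With single-copy peaks alone, 30 peaks were assigned to receptors, and 5 receptors had at least 2. Of these peaks 56.7% lay within 1 kb, against 5274 of 7536 in the whole list, and median GC content was 73.2%. TAAT occurred in 4 (13.3%, all single-copy peaks 9.67%) and AGGTCA in 1 (3.33%, all 5.02%). For both strings the higher share was on the other side than with all peaks, and the receptor counts are small. Within 10 kb of a TSS there were 25 peaks, 4 receptors with at least 2, 68.0% within 1 kb, a median GC content of 73.5% and 1 multi-copy peak. The whole list held 5416 peaks within 1 kb and 1473 between 1 and 10 kb. For the receptors with at least 2 peaks under these settings, no share over all genes is given. Whether the contrast with all genes holds there is therefore not known. Assigned to the closest GENCODE TSS, 33 of 69 peaks were multi-copy, and no share over all peaks is given for this setting. By 75-base words 10 peaks were multi-copy (20.0%, all peaks 28.4%). In the central 100 bp, TAAT occurred in 2 peaks (4.0%, all 9.59%), CTAATGG or CTAATTG in 0 (all 0.149%) and the GATA string in 1 (2.0%, all 1.93%). In whole peaks the counts were 33 for TAAT (66.0%, all peaks 73.8%), 15 for AGGTCA (30.0%, all 23.8%), 3 for CTAATGG or CTAATTG (6.0%, all 5.0%) and 22 for the GATA string (44.0%, all 45.6%). With all gene symbols as the background, 18.6% had a peak. A count cannot rise where a setting keeps fewer of the same peaks or searches a narrower window. The causes of the other shifts, among them those in GC content and in the share within 1 kb, were not tested. The number of receptors with a peak ranged from 18 within 10 kb to 27 by GENCODE, and no share over all genes is given for these 2 settings. With unknown depth, a receptor without a peak cannot be called unbound.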

Other observations

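The 6 single-copy receptor peaks beyond 10 kb ranged from 44.5% to 78.0% GC in the central 200 bp, with a median of 62.0%, and 1354 single-copy peaks of the whole list at that distance had a median of 63.5%. The highest were those of Esrrg and Nr4a1 with 78.0% each, and the lowest was the distal Nr2f2 peak on the dinucleotide repeat.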
